A study of Saccharomyces cerevisiae with 255 samples.

Results

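The genes described here encode 10 plasma membrane permeases that carry amino acids into budding yeast: GAP1 (YKR039W), AGP1 (YCL025C), GNP1 (YDR508C), BAP2 (YBR068C), BAP3 (YDR046C), TAT1 (YBR069C), TAT2 (YOL020W), LYP1 (YNL268W), CAN1 (YEL063C) and MUP1 (YGR055W). They were chosen by name, 10 of the 6629 genes counted in each library, and all 10 were found in all 255 libraries. Their mRNAs were followed through RNA tagging, in which an RNA-binding protein (RBP) is fused to the poly(U) polymerase Pup-2 of C. elegans, so that mRNAs the fusion reaches in the living cell receive a tail of Us behind the poly(A) tail. For each gene and library, the files give the number of reads with 0 to 16 Us. Reads with 4 to 13 Us are called tagged here, and the tagged share is their percentage among all reads of the gene.

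All strains derive from BY4741, a laboratory strain with auxotrophies for several nutrients, and were sampled in exponential growth in synthetic complete medium with glucose. The groups were 34 strains with 1 intact RBP fused to Pup2 at its own locus (109 libraries, among them 2 of Scp160-Pup2 and 2 of Bfr1-Pup2), 50 strains in which 1 of 8 of these RBPs lacked a stretch of its sequence (127 libraries, 10 of them from 5 Scp160 deletions), 3 strains with Puf3, Puf4 or Puf5 fused to catalytically inactive Pup2 (dPup2, 11 libraries) and 3 nontagged C-SWAT strains (8 libraries). The dPup2 strain was thus never Scp160 or Bfr1 itself, and the labels do not say which residues Scp160_Δ4 and Scp160_Δ6 lack, where ΔIDR names the removal of an intrinsically disordered region. Strains labelled T1 to T7 are truncations. The labels name a clone (C1 or C2) in some strains. In Scp160_Δ6, Scp160_ΔIDR_1 and Scp160_ΔIDR_2 the 2 libraries come from different clones. Both libraries of Puf4_T4 come from clone C1 and both of Pub1_T2_Trc9 from C2, and those of Scp160 and Bfr1 have no clone label. Where no clone is named or 1 clone is repeated, nothing in the labels shows separate cultures. The p-values measure the spread between libraries, which may there be technical.

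Amino acid permeases span the membrane many times and are inserted at the endoplasmic reticulum (ER), where the chaperone Shr3 helps them to fold and to leave for the cell surface. Their synthesis follows the nutrients outside the cell: the Ssy1-Ptr3-Ssy5 sensor detects external amino acids and activates the factors Stp1 and Stp2, which induce AGP1, BAP2, BAP3, TAT1 and GNP1 among others, while GAP1 is repressed on good nitrogen sources. Gap1 is the general amino acid permease, Agp1 takes up many amino acids at low affinity, and Gnp1 is a high-affinity glutamine permease. Bap2 and Bap3 carry branched-chain amino acids, Tat1 carries tyrosine and branched-chain amino acids, and Tat2 is the high-affinity tryptophan permease. Lyp1 is specific for lysine, Can1 for arginine and Mup1 for methionine. Of the RBPs, Scp160 is a protein of many KH domains that sits with polysomes at the ER, and Bfr1 is found with it on polysomes.

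Each of the 10 genes is 1 uninterrupted coding exon of 1725 to 1992 nt in the R64 genome, and no stretch of 25 nt between 300 nt before and 100 nt after its stop codon occurs a second time in the genome. Reads were counted around the transcription termination site instead, a window that was not itself searched for repeats. LYP1 lies on the plus strand of chromosome XIV (138550 to 140385), GNP1 on the minus strand of chromosome IV (1466453 to 1468444) and MUP1 on the plus strand of chromosome VII (599417 to 601141). TAT1 and BAP2 are neighbours on the minus strand of chromosome II, with 883 nt between the stop codon of TAT1 and the start of BAP2. The motif TGTANANTA, which Puf4 binds, was found on the transcript strand within 300 nt after the stop codon of 3 permease genes, and in 8.67% of 5939 genes. These 3 sites are shown because LYP1 was the permease mRNA tagged by Puf4, as described further on; capitals mark the motif, and the letters are those of the R64 reference, 5′ to 3′ on the transcript strand.
LYP1 (chrXIV:140483-140507, plus strand, 106 nt after the stop codon): aaactttaTGTATAATAtcaccact
BAP3 (chrIV:548718-548742, minus strand, 28 nt after the stop codon): taaatattTGTATATTAtattcata
TAT2 (chrXV:287971-287995, plus strand, 29 nt after the stop codon): tttattttTGTAGAATAtttttttt
The longer motif of Puf5 was found after the stop codons of GAP1, AGP1 and CAN1 (8.13% of genes), and the Puf3 motif TGTANATA after none of the 10 (16.4% of genes).

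Depth varied widely, as the smallest library held 93564 reads, the median library 1045022 and the largest 5768639, and 10 stayed under 200000 reads. The 2 Scp160 libraries held 1723842 (replicate 1) and 1081236 reads (replicate 4) and the 2 Bfr1 libraries 994694 and 1715343, against 181495 to 2917011 in the dPup2 libraries. A set of 11 libraries stood apart in AGP1 and GAP1. In these 11, AGP1 lay at 146 to 263 reads per 1000000 reads of the library (RPM) and GAP1 at 82.8 to 187 RPM, while in the other 244 libraries AGP1 reached at most 85.0 and GAP1 at most 58.7 RPM. They were replicates 1, 2 and 4 of Puf4, all 3 of Puf6, replicate 6 of Puf5, replicates 1 and 6 of Puf3-dPup2 and replicates 4 and 5 of the Puf3 C-SWAT strain, so that 2 of the 11 dPup2 control libraries are among them. Leaving these 11 libraries out was tried after the data had been seen, and its values stand beside most of the results it touches.

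Over all 255 libraries, the 10 mRNAs spanned a range of levels from GNP1 with a median of 192 RPM to GAP1 with 11.9 RPM. BAP2 followed GNP1 with 180 RPM, then MUP1 with 176, LYP1 with 113, TAT1 with 108, BAP3 with 91.8, CAN1 with 78.3, TAT2 with 48.2 and AGP1 with 34.1 RPM. In this order, the interquartile ranges of neighbours did not overlap between MUP1 (146 to 209 RPM) and LYP1 (95 to 135), between CAN1 (66.3 to 97.0) and TAT2 (40.3 to 57.8), and between AGP1 (24.3 to 44.5) and GAP1 (7.46 to 17.6). The first 3 were not ranked against each other, since the ranges of GNP1 (162 to 233 RPM), BAP2 (147 to 225) and MUP1 overlapped. GAP1 varied most among libraries of the same strain, by 1.05 (SD of log2 RPM), before AGP1 with 0.74, and the other 8 by 0.32 to 0.52. In the plot of levels, the 11 libraries named above form the upper cloud of GAP1 and AGP1.

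**Figure D1:**
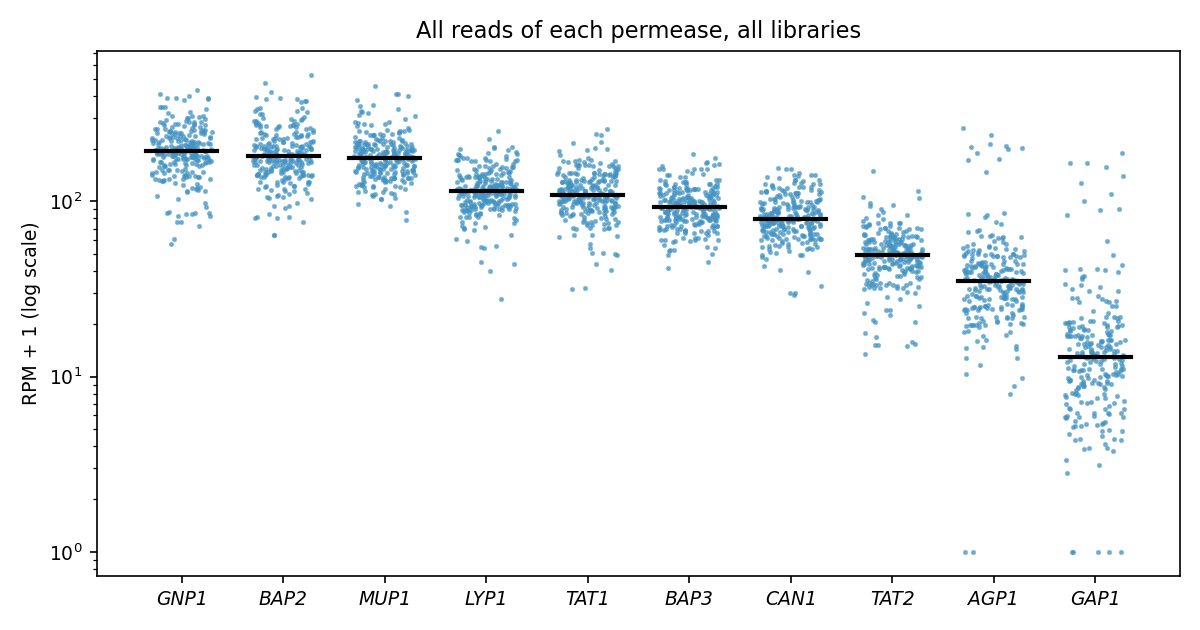
Level of each permease mRNA in all 255 libraries, in RPM plus 1 on a log scale; each point is 1 library and the black line is the median. The medians fall from 192 RPM for GNP1 to 11.9 RPM for GAP1, and GAP1 and AGP1 have the widest spread.

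The question put first was which RBPs tagged these mRNAs at all. Added up over the 10 permeases, the tagged share was 2.91% in Scp160 (87 of 2989 reads) and 2.35% in Bfr1 (72 of 3066 reads), against 1 tagged read of 17498 in dPup2 and 1 of 12481 in C-SWAT. By library, the permeases had 1.52% (replicate 1) and 4.60% (replicate 4) in Scp160 and 2.34% and 2.35% in Bfr1. In both strains the permeases exceeded the rest of the transcriptome, which was tagged at 0.623% in Scp160 and at 0.528% in Bfr1, ratios of 4.67 and 4.45. Pub1, a poly(U)-binding protein, was the third RBP to tag more than 1% of permease reads, with 2.25%, but it tagged 22.4% of the reads of all other genes, a ratio of 0.10. These are shares of added-up reads, in which abundant mRNAs weigh most. By the median gene of at least 16 RPM, Pub1 had 1.85% for the permeases and 2.34% for other genes. Its 4 libraries had 1.61%, 2.07%, 3.69% and 4.35% of permease reads tagged.

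The remaining RBPs tagged permease reads rarely, and 11 of them not at all. Of these, Pbp2 (0 of 1841 permease reads), Yhc1 (0 of 2185) and Psp2 (0 of 802) tagged 0.147% to 0.194% of other genes' reads. The rest tagged 0.015% to 0.036% of other genes' reads, against 0.012% in dPup2, so their counts of 0 say little about the permeases. The authors counted 16 of the RBPs as reliably profiled. Rie1 reached 0.981% of permease reads, against 1.09% of other genes. Of its 22 tagged permease reads 18 came from replicate 3, without which the shares were 0.374% and 0.709%. Over all 3 libraries the tagged reads fell on GNP1 (5 of 352 reads), BAP2 (4 of 356), LYP1 (4 of 233), BAP3 (4 of 248), MUP1 (3 of 398) and TAT1 (2 of 281). Sro9, an RBP with a La domain, reached 0.785%, against 10.3% of other genes, with MUP1 (6 of 377) and BAP2 (4 of 200) ahead. Puf4 reached 0.342%, against 0.588%, with 26 of its 32 tagged permease reads on LYP1, and Puf3 0.024%, against 0.625%. Of the 18 RBPs that tagged at least 0.1% of the other genes' reads, the permeases lay above the other genes in 3 (Scp160, Bfr1 and Nrd1, the last with a ratio of 1.05) and below them in 15. The value of Nrd1 rests on 2 tagged reads in replicate 3, and the other 3 libraries had 0 of 1746. In Puf4 without the libraries of high AGP1, replicate 3 alone had 0.805% of permease reads tagged, against 0.734% of other genes. The order depends on the measure. By the median gene of at least 16 RPM, the permeases lay above other genes in Rie1 (0.754%, against 0.236%) and Nsr1 (0.401%, against 0.154%). The same held for Nab6 (0.110%) and Puf4 (0.034%), against 0. They lay below in Pub1 and in Sro9 (0, against 1.10%). Of the 9 tagged permease reads of Nsr1, 7 came from replicate 3, which had 292 permease reads. In Nsr1, replicate 1 had 2 of 1305 tagged, and replicates 2 and 4 had 0 of 710 and 0 of 236. These ratios and medians are descriptions with no test. Between the controls themselves, C-SWAT and dPup2, no permease had the 10 tagged reads that the test asked for, and edgeR and DESeq2 each called 0.0% of genes (82 tested by edgeR, 3 at an unadjusted p below 0.05). All 34 RBPs were set against the same 11 dPup2 libraries in the tests that follow.

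**Figure D2:**
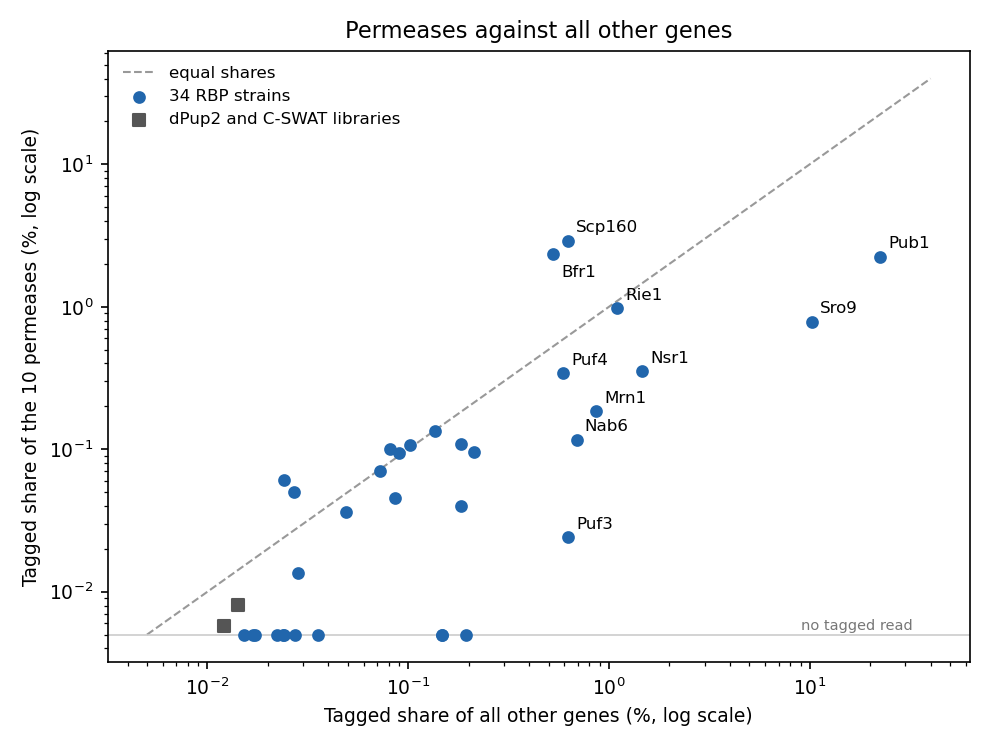
Tagged share of the 10 permeases added up (vertical axis, percent, log scale) against the tagged share of all other genes (horizontal axis, percent, log scale), 1 point for each of the 34 RBP strains and squares for dPup2 and C-SWAT; strains with no tagged permease read are drawn on a line at the bottom. Scp160 and Bfr1 stand above the diagonal at 2.91% and 2.35%, while Pub1 at 2.25% and Sro9 at 0.785% lie far below it.

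LYP1, the lysine permease, was the most strongly tagged of the 10 in both ER-associated RBPs. In Scp160 it had 12 tagged of 207 reads (5.80%) and 19 of 156 (12.2%), in Bfr1 12 of 119 (10.1%) and 19 of 235 (8.09%), against 0 in 10 dPup2 libraries and 1 of 120 reads (0.833%) in the eleventh. All 4 libraries of the 2 RBPs thus lay above all 11 dPup2 libraries. Pooled, the share was 8.54% in Scp160 (95% Wilson interval 6.08 to 11.9) and 8.76% in Bfr1 (6.24 to 12.2), against 1 of 1792 reads in dPup2, ratios of 153 (25.5 to 6237, exact conditional interval) and 157 (26.2 to 6396). These intervals cover counting error only, and reads were not shown to be independent molecules. By edgeR's quasi-likelihood test of tagged reads with all reads of the gene as the offset, adjusted over all genes tested, the log2 fold change of LYP1 was 6.07 ± 0.58 (SE, adjusted p = 3.1e-08) in Scp160 and 6.08 ± 0.48 (adjusted p = 2.0e-09) in Bfr1.

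GNP1, the glutamine permease, had the next highest share in Scp160 after LYP1 among the 9 permeases at 16 RPM or more, which leaves out GAP1 with 1 of 19 reads. Its tagged reads were 4 of 248 (1.61%) and 12 of 227 (5.29%) in Scp160 and 5 of 257 (1.95%) and 7 of 403 (1.74%) in Bfr1, against 0 of 2957 in dPup2. The share was at least 33.2-fold higher in Scp160 and at least 17.9-fold higher in Bfr1 than the 3 counts that a count of 0 over the dPup2 libraries allows. Here and below, such bounds cover only the group with a count of 0. The other share enters as observed, without its counting error, so with few tagged reads the true ratio may be smaller. By edgeR, GNP1 passed with adjusted p = 7.9e-05 in Scp160 and 7.6e-05 in Bfr1. Scp160 replicate 4 stood above the other 3 libraries, which lay close together, and no library of either RBP overlapped with dPup2.

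MUP1, the methionine permease, was tagged evenly in its 4 libraries. It had 4 of 290 (1.38%) and 5 of 238 (2.10%) in Scp160 and 5 of 194 (2.58%) and 9 of 335 (2.69%) in Bfr1, against 0 of 3274 in dPup2, bounds of at least 18.6-fold and at least 28.9-fold. It passed in Bfr1 (edgeR, adjusted p = 3.9e-05) and, with 9 tagged reads, was 1 short of the 10 that a gene needed to be tested in Scp160.

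Few permeases could be tested in this way. Of the 10, 2 met the minimum of 10 tagged reads and a mean of 16 RPM in Scp160 and 3 in Bfr1, and these were called higher, as were 91.9% of the 295 genes tested in Scp160 and 87.8% of the 245 in Bfr1. In dPup2, GNP1 and MUP1 had no tagged read and LYP1 had 1. They thus met the minimum through the RBP strain, so these counts say little about the permeases. With 1 of the 2 Bfr1 libraries left out, LYP1 alone was called, and without Scp160 replicate 4 LYP1 was the only permease tested and called. DESeq2 called LYP1 alone in each strain. Without the 11 libraries of high AGP1, 2 of them dPup2, the counts were again 2 and 3.

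The tyrosine permease TAT1, the branched-chain permease BAP3 and the arginine permease CAN1 formed a middle group in Scp160. TAT1 had 2 of 164 (1.22%) and 6 of 157 (3.82%) reads tagged, BAP3 1 of 176 (0.568%) and 7 of 119 (5.88%), and CAN1 1 of 134 (0.746%) and 5 of 106 (4.72%), against 0 of 1690, 0 of 1449 and 0 of 1195 in dPup2. Replicate 4 was the higher library for all 3, and both libraries lay above dPup2. The pooled shares were at least 14-fold, 13.1-fold and 9.96-fold higher than in dPup2 for TAT1, BAP3 and CAN1. In Bfr1, CAN1 had 4 of 191 reads tagged (2.09%, at least 8.34-fold higher), while BAP3 had 3 of 277 and TAT1 3 of 269, no more than the 3 counts of the floor.

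BAP2, the second branched-chain permease, was among the most abundant of the 10 and was tagged little. It had 0 of 294 and 5 of 259 reads tagged in Scp160 (0.904% pooled, at least 7.25-fold higher than dPup2) and 1 of 204 and 0 of 320 in Bfr1, against 0 of 2406 in dPup2. TAT2 had 1 tagged read of 124 in Scp160 and 0 of 127 in Bfr1, which allows a share of up to 2.36%. AGP1 had 2 of 71 in Scp160 and 2 of 106 in Bfr1, and GAP1 1 of 19 and 2 of 29, too few reads for a statement.

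**Figure D3:**
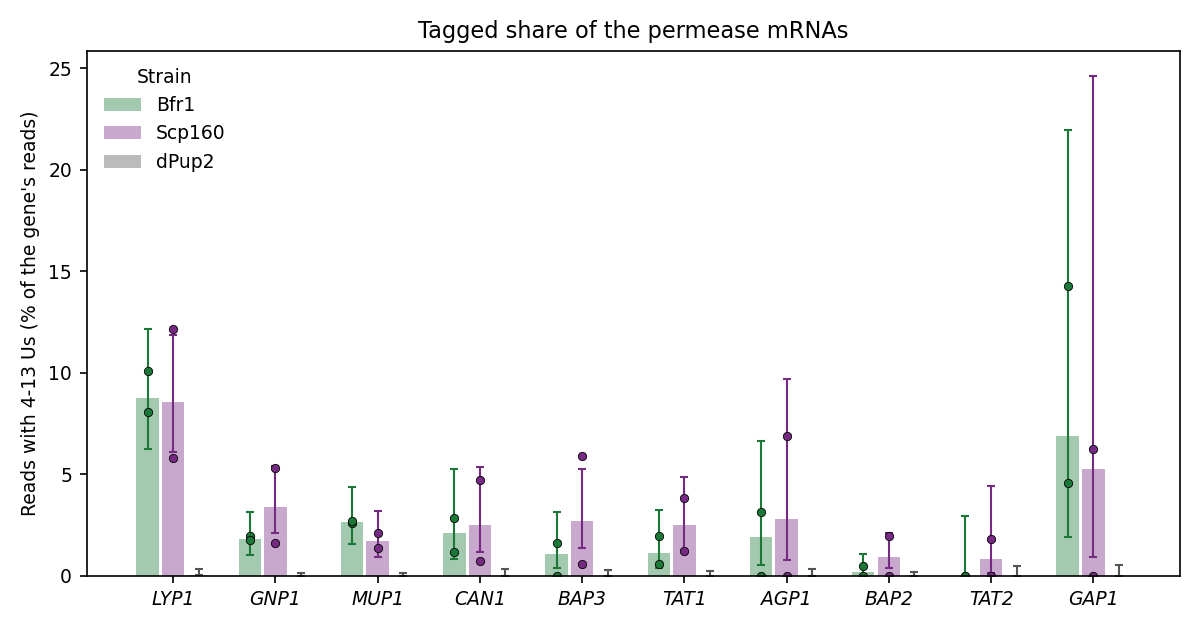
Tagged share (percent of reads with 4 to 13 Us) of each permease in Bfr1, Scp160 and dPup2; bars are pooled over the libraries of the group with 95% Wilson intervals, and points are the 2 libraries of each RBP. LYP1 reaches 8.76% in Bfr1 and 8.54% in Scp160, while the other permeases except the rarely read GAP1 lie at or below 3.37%.

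The 2 Scp160 libraries differed in their extent of tagging for other genes as well, with 0.468% in replicate 1 and 0.871% in replicate 4, where the Bfr1 libraries had 0.598% and 0.487%. The calls also rest on the U lengths counted. When reads with 14 to 16 Us were added to the tagged ones, 0 permeases were called in either strain. Such reads made up 4.41% of LYP1 in Scp160 and 7.06% in Bfr1, against 8.26% of LYP1 in dPup2, and they made up 6.97% of GNP1 and 8.09% of MUP1 in dPup2.

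Bfr1 was then set against Scp160 directly. Of the 6 permeases tested, edgeR called 0, with 0 at an unadjusted p below 0.05 and 0 called by DESeq2, where 1.40% of the 356 genes tested were called. For LYP1 the log2 difference of Bfr1 minus Scp160 was 0.02 ± 0.50 (SE), with a 95% interval of −0.96 to 1.01. The interval of MUP1 was wider (0.60 ± 0.90, −1.17 to 2.37), as was that of GNP1 (−0.89 ± 0.84, −2.53 to 0.76). The values of LYP1 and GNP1 changed sign when 1 library was left out. At this depth, no difference between the 2 RBPs was detectable on these mRNAs.

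How the permeases compare with other membrane proteins was asked with lists of related genes, over genes of at least 16 RPM. The median tagged share of the permeases was 2.50% in Scp160 and 1.82% in Bfr1 (9 of 10 genes, without GAP1), where the median of all other genes was 0 in both, and 29.5% and 24.3% of these genes had any tagged read. The 4 other amino acid permeases that reached 16 RPM had medians of 5.64% and 5.58%, and 2 were tested and called in both strains. These were HIP1, the histidine permease, with 6.97% in Scp160 and 7.33% in Bfr1, and SAM3, a permease of S-adenosylmethionine, with 3.29% and 3.82%.

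Most genes that sense amino acids or that package and turn over permeases had no tagged read, on few reads. The sensing genes measured had 0 tagged in Scp160 (SSY5, STP1 and STP2, 48 to 94 reads each) and in Bfr1 (SSY5 and STP1, 62 and 108 reads). A count of 0 then allows shares of up to 3.19% to 6.25% in Scp160 and 2.78% to 4.84% in Bfr1, above the medians of the permeases, so that a lower tagging of these genes was not detectable at this depth. Among the 9 packaging and turnover genes measured, 1 was tested and called in each strain. It was SHR3, which encodes the permease chaperone and ER membrane protein, and it reached 4.37% in Scp160 and 5.91% in Bfr1, above each of the 9 permeases at 16 RPM or more except LYP1. Of the others, 6 in Scp160 and 7 in Bfr1 had no tagged read, which allows up to 2.70% to 5.0% and 3.57% to 5.77%. The cytosolic enzymes of amino acid synthesis (23 in Scp160 and 22 in Bfr1) had medians of 0 and at most 0.621% in Scp160 and 0.390% in Bfr1, and none met the minimum to be tested.

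Some other transporters were tagged more than the permeases. The hexose transporters had medians of 24.6% in Scp160 and 24.2% in Bfr1, with HXT2 at 26.4% and 29.8% and HXT3 at 20.3% and 18.5%; 4 of 5 were called in Scp160 and 3 of 4 in Bfr1. HXT7 (30.2% and 34.7%) has a near-identical copy in HXT6, and its reads are uncertain. Among the P-type ATPases the medians were 2.41% and 0.592%, but SPF1, an ATPase of the ER, reached 38.8% and 23.4%, and PMA1, the proton pump of the plasma membrane, 5.78% and 5.38%. The vacuolar amino acid transporters had medians of 1.67% and 1.8%, and YPQ1, a transporter of basic amino acids at the vacuole, led them with 16.9% and 13.2%. The medians of the 10 permeases thus lay between those of the cytosolic enzymes and of the hexose transporters in both strains. These counts and medians are descriptions, to be read beside the 91.9% and 87.8% of all tested genes called in Scp160 and Bfr1.

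**Figure D4:**
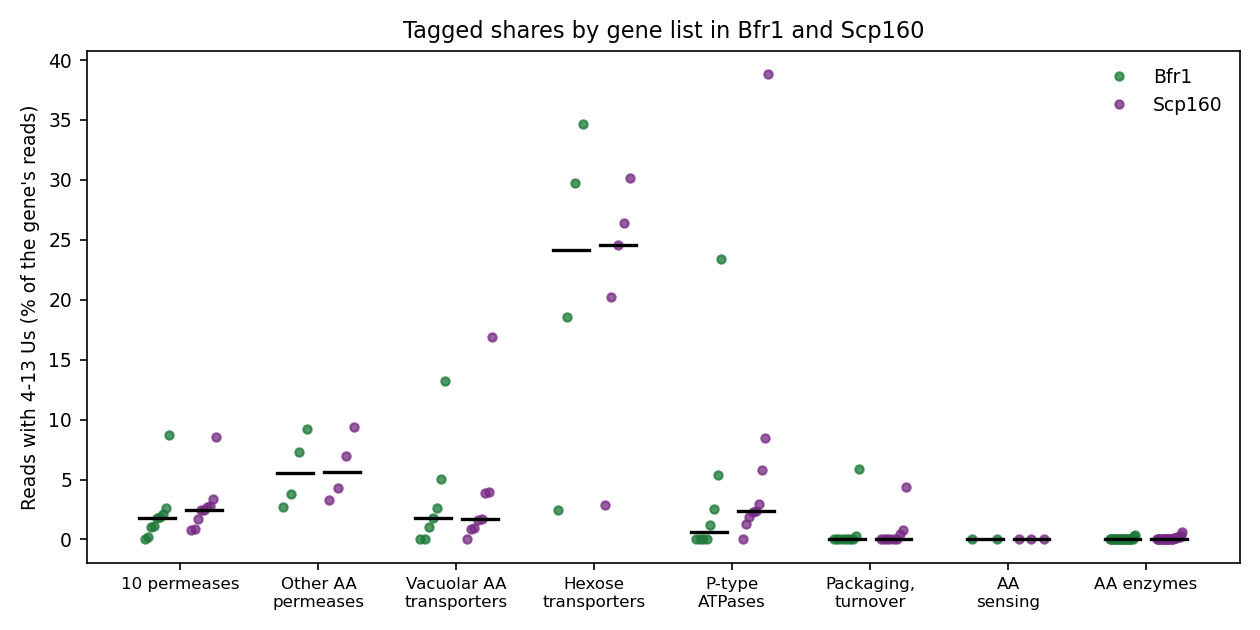
Tagged share of single genes of at least 16 RPM (percent) by list, in Bfr1 and in Scp160; each point is 1 gene and the black line is the median of the list. The 10 permeases have medians of 1.82% in Bfr1 and 2.50% in Scp160, hexose transporters of 24.2% and 24.6%, and cytosolic amino acid enzymes of 0.

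The 5 Scp160 deletions show how the tagging of these mRNAs stood when a stretch of the protein was missing. LYP1 remained tagged in 4 of them: in ΔIDR_1 with 9.24% and 14.8% of reads, in ΔIDR_2 with 10.2% and 7.01%, in ΔIDR_3 with 7.35% and 2.48%, and in Δ4 with 8.62% and 4.32%, against 5.80% and 12.2% in intact Scp160. The libraries of these 4 strains overlapped with intact Scp160. In Δ6, by contrast, LYP1 had 1 tagged read of 56 and 0 of 95, 0.662% in all, so that both libraries lay below both libraries of intact Scp160. The log2 fold change was −3.55 ± 1.44 (SE) and did not pass the adjustment over 721 genes (edgeR, p = 0.0136, adjusted p = 0.136). It passed when Δ6 was fitted with intact Scp160 alone (adjusted p = 0.0303) and with tagged reads of 5 to 13 Us (adjusted p = 0.0318). In Δ6 all other genes also had fewer tagged reads, 0.159% and 0.177%, against 0.468% and 0.871% in intact Scp160, and the part of this in the value of LYP1 was not tested.

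GNP1 and MUP1 also kept tagged reads in all 5 deletions. GNP1 had 21 of 525 reads in ΔIDR_1, 7 of 341 in ΔIDR_2, 2 of 610 in ΔIDR_3, 20 of 418 in Δ4 and 3 of 296 in Δ6, against 16 of 475 in intact Scp160. The lowest of these, ΔIDR_3, came to −2.80 ± 1.44 on the log2 scale (edgeR, p = 0.0517, adjusted p = 0.235). MUP1 had 10 of 627 in ΔIDR_1, 8 of 343 in ΔIDR_2, 14 of 571 in ΔIDR_3, 21 of 557 in Δ4 and 3 of 246 in Δ6, against 9 of 528 in intact Scp160. In ΔIDR_3 the libraries were far apart, with 11 of 165 MUP1 reads (6.67%) tagged in one and 3 of 406 (0.739%) in the other.

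In total, 7 permeases (BAP2, BAP3, TAT1, GNP1, LYP1, CAN1 and MUP1) could be tested in the 5 deletions. Of these 35 pairs edgeR called 0, with 1 at an unadjusted p below 0.05 (LYP1 in Δ6) and 0 by DESeq2, where 9.24% of all pairs of gene and deletion were called. Among all genes, 1.94% were called in ΔIDR_1, 19.1% in ΔIDR_2, 1.39% in ΔIDR_3, 16.5% in Δ4 and 7.21% in Δ6. With 2 libraries a strain, the SE of single permeases was 0.94 to 1.85 on the log2 scale, so that only large changes could pass. Added up, the permeases had 2.79% and 4.44% of reads tagged in ΔIDR_1, 3.40% and 2.03% in ΔIDR_2, 3.84% and 0.686% in ΔIDR_3, 4.71% and 2.30% in Δ4 and 1.24% and 1.31% in Δ6, against 1.52% and 4.60% in intact Scp160. Δ6 was thus the lowest strain by its pooled share of 1.28%. Set against the other genes of the same strain, however, the permeases of Δ6 had a ratio of 7.51, the highest of the Scp160 strains, against 4.67 in intact Scp160, and the median log2 fold change in Δ6 was −0.46 over the 7 permeases tested and −1.65 over all genes tested. These ratios and medians carry no test. In each of the 5 strains the library with the higher share of permeases also had the higher share of other genes.

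Puf4, a Pumilio protein that binds TGTA motifs in the 3′ UTR, tagged LYP1 above the dPup2 level. This mRNA, which carries the site shown above, had 8 of 236 reads (3.39%), 5 of 212 (2.36%), 6 of 151 (3.97%) and 7 of 352 (1.99%) tagged in the 4 libraries of intact Puf4, against 1 of 1792 in dPup2. The lowest Puf4 library lay above the highest dPup2 library (0.833%). The log2 fold change was 4.52 ± 0.64 (SE, edgeR, adjusted p = 2.4e-06), and 93.6% of the 391 genes tested were called higher. With 1 tagged read in dPup2, LYP1 met the minimum of 10 tagged reads through Puf4, so this call by itself says little. Replicates 1, 2 and 4 of Puf4 are among the libraries of high AGP1; without them, replicate 3 alone holds too few tagged reads (6) to be tested. BAP3, with a site as well, had 2 of 745 reads tagged in Puf4, and TAT2, the third, 0 of 428, which allows up to 0.701%.

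LYP1 lost its tagged reads in 3 Puf4 strains. It had 0 of 610 reads in the 4 libraries of ΔRBD, which lacks the RNA-binding domain, 0 of 221 in the strain labelled Puf4_T4 and 0 of 274 in Puf4_T4&ΔIDR, against 26 of 951 (2.73%) in intact Puf4. These were at least 5.56-fold, 2.01-fold and 2.50-fold lower, in the same order, with adjusted p of 0.00017, 0.0188 and 0.0111 by edgeR. Lower calls were also made for 68.9%, 51.1% and 45.7% of the 540 genes tested in these strains. Leaving out replicate 1 or 2 of every strain ended the calls in T4 and T4&ΔIDR, and with 4 to 16 Us those in ΔRBD and T4&ΔIDR were lost (adjusted p = 0.869 and 0.865). LYP1 kept tagged reads in ΔIDR (5 of 266), T1 (8 of 524) and T2 (9 of 365), and was called in none of these 3. Without the libraries of high AGP1, intact Puf4 is 1 library with 6 tagged LYP1 reads. The adjusted p of ΔRBD, T4 and T4&ΔIDR by edgeR were then 0.00053, 0.0128 and 0.0082, but the lone library is assumed to vary like the other groups, so that these values do not bear on the spread of intact Puf4.

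In the strain labelled Puf4_T3, LYP1 had 7.50%, 4.95% and 4.35% of reads tagged, each above all 4 libraries of intact Puf4. The pooled share was 5.80%, 2.12 times that of intact Puf4 by counts (1.21 to 3.74), but across libraries the log2 fold change of 0.96 ± 0.76 did not pass (edgeR, adjusted p = 0.540), in a comparison in which 3.70% of genes were called higher. BAP3 showed 9 of 354 reads in T3, against 2 of 745 in intact Puf4 (log2 fold change 2.62 ± 1.24, edgeR, adjusted p = 0.231).

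**Figure D5:**
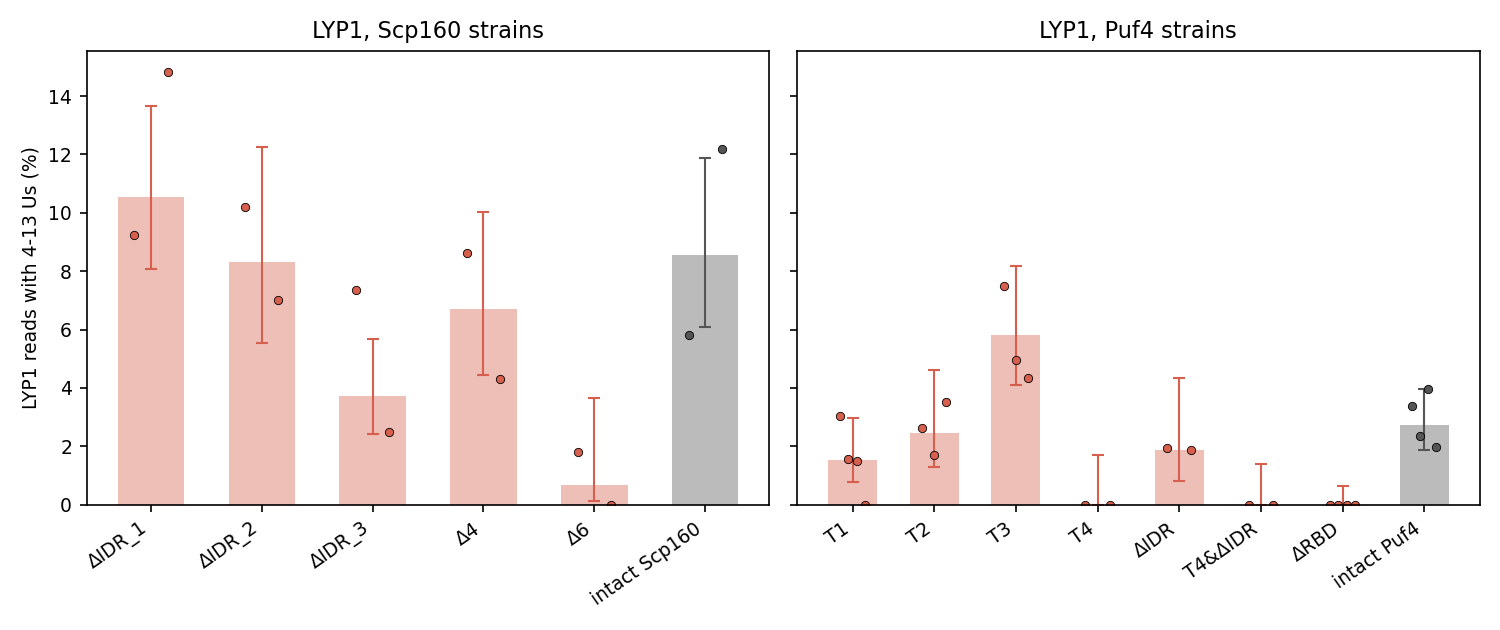
Tagged share of LYP1 (percent) in the Scp160 strains (left) and the Puf4 strains (right); bars are pooled shares with 95% Wilson intervals, points are libraries, and the intact RBP stands last in grey. The Scp160 strain Δ6 (0.662%) and the Puf4 strains ΔRBD, T4 and T4&ΔIDR (0) are lowest, and Puf4_T3 (5.80%) lies above intact Puf4 (2.73%).

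Pub1 tagged MUP1 and GNP1 with 15 reads each, the most among the permeases, while AGP1 had the highest share of those at 16 RPM or more, on 65 reads. MUP1 had 3 of 149 reads (2.01%), 3 of 113 (2.65%), 5 of 57 (8.77%) and 4 of 27 (14.8%) tagged, and GNP1 1 of 143 (0.699%), 10 of 201 (4.98%), 3 of 69 (4.35%) and 1 of 36 (2.78%), against 0 of 3274 and 0 of 2957 in dPup2. Replicates 3 and 4, with 429335 and 241734 reads the shallowest of Pub1, were the highest in MUP1, and no Pub1 library of either gene overlapped with dPup2. MUP1 was at least 47.3-fold, GNP1 at least 32.9-fold and BAP2 (11 of 594 reads) at least 14.9-fold higher than dPup2. These 3 were tested and called (edgeR, adjusted p = 1.3e-09, 5.0e-09 and 1.8e-06), as were 99.9% of 1488 genes. With no tagged read in dPup2, they met the minimum of 10 tagged reads through Pub1 alone, so these calls too say little about the permeases. AGP1 (4 of 65 reads, 6.15%, at least 24.8-fold higher), TAT2 (5 of 152, at least 8.54-fold) and CAN1 (4 of 278, at least 5.73-fold) stayed below the minimum of 10 tagged reads. LYP1, first in Scp160 and Bfr1, had 3 of 359 reads tagged by Pub1; the RBPs' shares were not tested against each other here. Over all 34 RBPs, 9 of the 340 pairs of permease and RBP could be tested and 9 were called, in Scp160, Bfr1, Pub1 and Puf4, where 84.6% of all pairs tested were called. Without the 11 libraries of high AGP1, 8 were tested and called.

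In some deletions within Pub1, the tagging of GNP1, MUP1, BAP2, AGP1 or TAT2 was called lower, where many other genes were called lower as well. TAT1, LYP1 and CAN1 were tested in all 8 and passed in none, and BAP3 and GAP1 did not meet the minimum to be tested. Over the 45 deletion strains of the 7 RBPs other than Scp160, 78 pairs of permease and strain were tested; 20 were called lower, 0 higher, and 28 had an unadjusted p below 0.05. Among all genes, 25.4% of pairs in these 45 strains were called lower and 3.63% higher. The permease pairs lay in Pub1 and Puf4 strains alone. In the 8 Pub1 strains 17 of 64 permease pairs were called lower (26.6%), where 44.3% of all pairs were, and in the 7 Puf4 strains 3 of 14, all LYP1, where 23.8% of all pairs were. GNP1 had 0 of 518 reads tagged in ΔIDR_1, 0 of 616 in ΔIDR_2, 2 of 468 in ΔIDR_3, 0 of 313 in Δ4, 0 of 250 in T2_Trc6 and 0 of 458 in T2_Trc9, against 15 of 449 in intact Pub1, and was called lower in these 6. It was not called in Δ2 (13 of 912) and ΔT1 (11 of 421).

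MUP1 was called in 6 strains as well. It had 3 of 723 reads in ΔIDR_1, 1 of 753 in ΔIDR_2, 1 of 300 in Δ4, 15 of 1128 in Δ2, 0 of 303 in T2_Trc6 and 0 of 402 in T2_Trc9, all called lower against 15 of 346 in intact Pub1. In ΔIDR_3 (9 of 614) and ΔT1 (3 of 321) it was not called. Of the settings tried, the Δ2 result of MUP1 was weaker in 5 and the same in 5. In intact Pub1, the MUP1 share was highest in the shallowest replicates 3 and 4, as given above. BAP2 was called in ΔIDR_2 (1 of 570) and T2_Trc9 (0 of 302), against 11 of 594 in intact Pub1, AGP1 in the same strains (0 of 156 and 0 of 124, against 4 of 65), and TAT2 in Δ2 (0 of 330, against 5 of 152). ΔIDR_2 and T2_Trc9, with 4 permeases called in each, also had the most genes called lower, 66.3% and 63.2% of 2768. The share was 54.4% in ΔIDR_1, 45.6% in T2_Trc6, 42.1% in Δ4, 39.7% in Δ2 and 35.2% in ΔIDR_3, and in ΔT1, with no permease called, 8.13%. Without the libraries of replicate position 2, GNP1 was no longer called in ΔIDR_1, ΔIDR_3, Δ4, T2_Trc6 or T2_Trc9.

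The mRNA levels of the permeases were compared between RBP strains from all reads, whatever their U length. Here 340 pairs of permease and RBP strain were tested against dPup2 (edgeR, TMM), of which 2 were called lower and 0 higher, with 27 at an unadjusted p below 0.05, where 0.383% of all pairs were called. Both lay in Pub1. BAP3 had 57.8, 51.5, 58.2 and 53.8 RPM in the Pub1 libraries, against 64.9 to 152 RPM (median 85.8) in dPup2, with no overlap (−0.83 ± 0.22, adjusted p = 0.0257). MUP1 had 129, 85.6, 133 and 112 RPM, against 121 to 397 RPM (median 192), with overlap (−0.94 ± 0.26, adjusted p = 0.0354). In Pub1, 2.47% of genes were called lower. Both calls were lost when any 1 of the 4 replicate positions was left out, and MUP1 also without the 11 libraries of high AGP1 (adjusted p = 0.0536), where BAP3 passed (adjusted p = 0.0260).

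Of the Scp160 deletions, Δ4 alone had a permease called at another level, which was AGP1. The Δ4 libraries carry no clone label, so the deletion and a difference between cultures cannot be told apart. As described above, AGP1 stood higher still in 11 libraries of other strains. AGP1 had 85.0 and 80.8 RPM in Δ4, against 24.4 and 26.8 RPM in intact Scp160 (log2 fold change 1.5 ± 0.30, edgeR, adjusted p = 0.0209), with no overlap, in a comparison in which 0.296% of genes were called higher. All 10 permeases had fold changes above 0 in Δ4, with 0.20 for TAT2 as the lowest and MUP1 (456 and 348 RPM, against 168 and 220 RPM) at 0.87 ± 0.23, where the median of all genes was −0.0002. Of these, 9 had an unadjusted p below 0.05, TAT2 being the exception, where 606 of the 5065 genes tested did. Over the 5 deletions, 50 pairs were tested, of which 1 was called and 11 had an unadjusted p below 0.05, where 0.166% of all pairs were called. The call of AGP1 was lost without Scp160 replicate 1 or without either library of Δ4 (adjusted p between 0.133 and 0.272). In these bulk samples, fewer cells with the mRNA and less mRNA in each cell cannot be told apart.

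Beyond the lists, the genes whose tagging ran most like the permeases across the 34 RBP strains were LEM3 (Pearson's r of 0.987 over 34 strains), KRE5 (0.981), DLD1 (0.959), ZRT3 (0.955) and ERG24 (0.951), with the median over the 10 permeases as the profile and 4302 genes as candidates. The measure was log2 of the mean tagged share in percent plus 0.1, and most of the 34 points lie at or near a share of 0. The values thus turn on the few strains that tagged permeases. Beside Scp160, Bfr1 and Pub1, these include Rie1 and Nsr1, with pooled permease medians of 0.754% and 0.401%. In both Rie1 and Nsr1, replicate 3 held most of the tagged permease reads. ERG24, an enzyme of sterol synthesis in the ER, had 9.71% of its reads tagged in Bfr1 and 10.4% in Scp160, and ZRT3, a zinc transporter of the vacuole, 6.21% and 11.4%. The others rest on fewer tagged reads. LEM3 had 4 of 59 reads tagged in Bfr1 and 11 of 88 in Scp160, and KRE5 6 of 52 and 16 of 80. DLD1 had only 1 of 121 and 3 of 111.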

How the data were processed

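RNA tagging libraries of 255 samples were read as deposited: raw read counts per gene, which the authors made with bcl2fastq, Cutadapt, Bowtie2 (genome R64), their own count of Us on the second read, and bedtools, which counted sense reads around each transcription termination site (300 nt before it, 100 nt after it). Versions, and whether molecular identifiers were collapsed, are not given in the sources used here, so intervals cover counting error only. No library pair of a strain was identical (316 pairs, lowest chi-square per degree of freedom 1.56).

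Tagged reads (4 to 13 Us) were tested with edgeR (4.0.16, R 4.3.3) by the quasi-likelihood method, offset by the log of the gene's total reads in the library. Genes entered when they had 10 or more tagged reads in the fit and averaged 16 RPM or more, with Benjamini-Hochberg adjustment over all genes tested and a threshold of 0.05. Each RBP was fitted with the 11 dPup2 libraries, and deletion strains together with their intact RBP. All reads were tested with TMM and filterByExpr. Fitted fold changes against a group at 0 depend on the prior count, so bounds over 3 counts are given. They take the share of the other group as observed, without its counting error. DESeq2 (1.42.0), other U ranges, no filter, other offsets, a replicate block and left-out libraries were tried. The test was checked on simulated data. Shares have 95% Wilson intervals (statsmodels 0.14.6), and figures were drawn with matplotlib (3.10.9).

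The 10 genes, the gene lists and the rule for named genes (list genes called in Scp160 or Bfr1, or at the top or bottom of their list, and the 5 genes most like the members) were chosen with earlier results of these data known. The replicate numbers in the titles are not said to mark a batch, so samples sharing a number were not treated as pairs. Sequences are from RefSeq (R64), in which 5956 of 6629 gene identifiers were found, and motifs were searched on the transcript strand.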

Additional observations from a re-analysis of the deposited data

Results flagged for a closer look

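TAT2 stood at 26.8 RPM in replicate 7 of the Puf3 C-SWAT strain, below the other 3 libraries of that strain with 46.4 to 49.8 RPM. The gap to the nearest library took 0.853 of the range of the 4 libraries, past Dixon's critical value of 0.829. Of 61 groups examined in this way, 1 was past its value, where chance gives about 1 in 20.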

How the results depend on the processing

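The number of permeases called over dPup2 (2 in Scp160, 3 in Bfr1) was 0 in both with 4 to 16 Us, 1 in both with DESeq2 and 8 in both with no filter, and 1 to 2 in Scp160 and 1 in Bfr1 with 1 library left out. Over the 34 RBPs, the 9 pairs became 1 with 4 to 16 Us, 39 with no filter and 4 to 8 without 1 replicate position, the 4 being without position 2. In Scp160_Δ6, 1 permease (LYP1) was called with 5 to 13 Us and in a fit of 2 strains, where none was called otherwise. Of the 20 pairs called in deletions of the other 7 RBPs, DESeq2 called 13, and 12 to 18 were called without 1 replicate position, the 12 being without position 2. In all reads, the 2 pairs of Pub1 became 1 without the libraries of high AGP1 and 0 without any replicate position, and the 1 pair of the Scp160 deletions became 0 to 1. With 4 to 16 Us, the log2 fold change turned to −0.32 for GNP1 in Bfr1 against dPup2, to −0.12 for MUP1 in Bfr1 against Scp160 and to 0.016 for AGP1 in Pub1_ΔIDR_2 against Pub1. With 1 library left out, Bfr1 against Scp160 ranged between −1.52 and 0.17 for GNP1 and between −0.47 and 0.59 for LYP1. The cause of these changes was not tested. Leaving out positions in the all-read fit of the Scp160 deletions left no spread to estimate, so single libraries were left out instead, an alternative added after seeing the data, as were leaving out the libraries of high AGP1 and leaving out single libraries from the pooled shares.

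Deviations of libraries with the same number correlated between −0.08 and 0.21 (pairs of an RBP and a dPup2 library). Bfr1 and Puf4-dPup2 gave 0.21 for both numbers, since the deviations of 2 libraries mirror each other. These few values cannot show whether samples that share a number belong together. With the replicate number as a block, 2 permeases were called in Scp160 and 3 in Bfr1, and the block changed no permease's call in these strains.

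Depth limits the rare permeases most: with 71 AGP1 and 19 GAP1 reads in Scp160, 3 counts come to 4.23% and 15.8% of the gene, so shares below these are not resolved.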

Other observations

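Tagged permease reads carried a mean of 7.17 Us in Scp160 (87 reads) and 6.82 in Bfr1 (72 reads), where other genes had 7.03 and 6.87. Over the 5 Scp160 deletions they carried 6.83 (331 reads), against 5.93 in other genes, and 34.4% of them had 4 or 5 Us, against 49.6%. In Puf4 the permeases had 6.50 Us (32 reads), against 7.38 in other genes, in Puf4_T3 6.00 (40 reads), against 7.89, and in Pub1 7.81 (62 reads), against 7.76. These are means over reads with no test.

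The general amino acid permease GAP1 varied within strains most like ENO1 and GPD1. Over the 255 libraries, with the mean of each strain removed, the log2 level of GAP1 ran most like that of ENO1 (enolase, Pearson's r of 0.675), GPD1 (glycerol-3-phosphate dehydrogenase, 0.616), HOR7 (0.614), PNC1 (nicotinamidase, 0.612) and YDL124W (0.601), out of 4435 genes of at least 16 RPM, and less like AGP1 (0.49). The 11 libraries of high AGP1, in which GAP1 was also highest, are included, and their part in these correlations was not tested. This comparison was chosen after the values had been seen, the libraries differ in depth, and no p is given.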
